A study of Homo sapiens with 32 samples.

Results

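The genes described here encode proteins of the centrosome and its centrioles: every array feature whose symbol starts with CEP and a digit, together with 14 further genes chosen by name (CCP110, NIN, NINL, PLK4, SASS6, CNTROB, CNTRL, PCM1, PCNT, STIL, CENPJ, OFD1, CDK5RAP2 and AKAP9). Where a gene had more than 1 feature, the brightest on average stood for it. This gave 50 members among the 14884 genes with a symbol. Of the 50, 47 are protein coding, 2 are transcribed pseudogenes (CEP170P1 and CEP192P1) and 1 is a long noncoding RNA (CEP83-DT). CENPJ, CNTROB, CEP83 and CEP112 are not analysed here. The rule itself uses names only.

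The centrosome organises microtubules and is built around a pair of centrioles, each of which is copied once per cell cycle. CEP192 and CEP152 recruit the kinase PLK4 to the parent centriole, and PLK4 acts with STIL and SASS6 to start the cartwheel from which the new centriole grows. CCP110 caps the distal end of the finished centriole and restrains cilium formation, appendage proteins such as NIN anchor microtubules on the mother centriole, and pericentriolar material around PCNT and CDK5RAP2 nucleates them. Several of these genes are transcribed mainly in dividing cells.

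All arrays were of K-562, a human chronic myeloid leukemia line driven by a fusion tyrosine kinase that imatinib and nilotinib both inhibit. Lines selected by stepwise exposure to 0.5 µM imatinib (low imatinib), 2 µM imatinib (high imatinib) or 0.1 µM nilotinib were set against treatment-naive cells. Each resistance had 2 lines, counted as biological replicates per the design text, and the naive cells had 2 sets whose titles carry the letters S and K, with no label explaining the letters. Each of these 8 sets was hybridised on 4 technical arrays, 32 in all. The labels name no genetic change made to any group. One growth text, naming neither drug as present, covers all samples, so whether drug was there at harvest is unclear.

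Levels are the deposited log2-scale values per array feature, given as the mean of the 4 arrays of a set. A difference of 1 on this scale corresponds to a doubling of signal. Arrays of a set correlated at r between 0.952 and 0.991, and the SD of a member over the 4 arrays of a set lay between 0.02 and 0.39. Of 9 K-562 markers, 3 were measured: GATA1 and KLF1, at percentiles 96.7 and 90.7 of all genes by mean level, and TAL1, also above the median of all genes, while the fibroblast gene LUM was at percentile 5.91 and the epithelial gene KRT18 at percentile 97.9. Median member level was 7.41, against 6.49 over all genes, and 43 of the 50 members were above that median of all genes. Since RNA was pooled over a culture, more cells in a given cell cycle stage and more RNA per cell cannot be told apart.

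The promoters of the 6 members with the largest differences from naive cells are shown, because these genes lay higher together in all resistant lines and a reader can compare their start regions. Each line gives the 250 bases before the RefSeq gene start on build GRCh38.p14, 5′ to 3′ on the gene's strand. Capitals mark CCAAT and TTTGAA (the core of the cell cycle homology region) or their reverse complements.
NIN (chr14:50831163-50831412, minus strand): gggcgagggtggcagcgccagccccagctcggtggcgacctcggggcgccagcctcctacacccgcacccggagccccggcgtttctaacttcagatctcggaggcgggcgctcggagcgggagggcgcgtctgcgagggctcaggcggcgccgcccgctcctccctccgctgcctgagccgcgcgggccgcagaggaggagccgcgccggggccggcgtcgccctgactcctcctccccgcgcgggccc
CEP162 (chr6:84227644-84227893, minus strand): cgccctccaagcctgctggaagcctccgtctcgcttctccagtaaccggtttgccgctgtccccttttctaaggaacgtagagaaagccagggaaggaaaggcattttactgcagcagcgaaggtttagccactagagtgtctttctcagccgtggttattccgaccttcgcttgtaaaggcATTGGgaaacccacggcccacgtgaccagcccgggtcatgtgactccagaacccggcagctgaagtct
CCP110 (chr16:19523692-19523941, plus strand): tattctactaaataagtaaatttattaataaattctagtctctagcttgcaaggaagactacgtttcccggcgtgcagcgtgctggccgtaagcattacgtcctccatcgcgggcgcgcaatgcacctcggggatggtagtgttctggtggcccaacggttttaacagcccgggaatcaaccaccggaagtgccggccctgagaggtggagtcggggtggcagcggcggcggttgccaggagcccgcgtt
CEP152 (chr15:48811070-48811319, minus strand): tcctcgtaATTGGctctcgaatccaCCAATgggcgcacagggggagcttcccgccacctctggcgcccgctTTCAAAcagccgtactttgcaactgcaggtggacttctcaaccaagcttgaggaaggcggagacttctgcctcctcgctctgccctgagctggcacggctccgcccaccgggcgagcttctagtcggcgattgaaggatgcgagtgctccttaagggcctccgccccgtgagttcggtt
STIL (chr1:47314148-47314397, minus strand): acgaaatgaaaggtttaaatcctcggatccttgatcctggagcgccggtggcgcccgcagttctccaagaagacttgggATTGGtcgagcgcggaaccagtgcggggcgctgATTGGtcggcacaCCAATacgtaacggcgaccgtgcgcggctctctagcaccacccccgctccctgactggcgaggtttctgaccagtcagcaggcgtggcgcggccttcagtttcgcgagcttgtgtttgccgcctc
CEP192 (chr18:12991112-12991361, plus strand): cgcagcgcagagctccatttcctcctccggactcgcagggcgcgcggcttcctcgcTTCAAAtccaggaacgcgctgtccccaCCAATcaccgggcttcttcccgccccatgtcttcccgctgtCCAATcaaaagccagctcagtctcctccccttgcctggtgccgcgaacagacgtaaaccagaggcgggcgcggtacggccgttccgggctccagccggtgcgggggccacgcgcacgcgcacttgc
NIN and CCP110 held neither word in these windows. CEP152 and CEP192 held both, CEP162 held CCAAT once and STIL held it 3 times. Over the 43 members found in the promoter table, in windows running on to 50 bases past the start and on both strands, TTTGAA occurred in 14 (32.6%), against 15.4% of all 27305 promoters and 11.8% of the 10749 promoters of array genes. CCAAT occurred in 20 (46.5%), against 35.7% of all promoters and 36.0% of those of array genes. At least 1 of the E2F words TTTGGCGC, TTTCCCGC and TTTCGCGC occurred in 5 (11.6%), against 2.79% of all promoters and 3.73% of those of array genes. Of the 9 members that passed the test described next, 2 held TTTGAA, 4 held CCAAT and 1 held an E2F word. These are matches of letters, not shown to be sites.

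Against naive cells, 9 members rose in the 6 resistant lines as a whole and 0 fell. Limma on the 8 set means called 3.72% of all genes in this comparison, 3.21% higher (adjusted p under 0.05, over 14884 genes), and 18% of the members. The 9 were NIN, CEP162, CCP110, CEP152, STIL, CEP192, CEP128, CEP57L1 and OFD1, with differences from 0.65 (OFD1) to 1.72 (NIN). The median member difference was 0.37, against -0.03 over all genes, and 41 of 50 members had a positive difference. At an unadjusted p under 0.05, 25 members were higher and 2 lower, against 18.1% and 11.6% of all genes. All 6 resistant lines lay above both naive sets for 24 members (48%), against 17% of all genes, and below both for 2 members (4%), against 15.9% of all genes. The count depended on single sets, falling in some fits and rising in others, as did the share of all genes called. In each such fit a group holds a single set, so only differences are given here. With each set left out in turn, the difference ran from 1.65 to 1.78 for NIN and from 0.59 to 0.71 for OFD1.

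**Figure D1:**
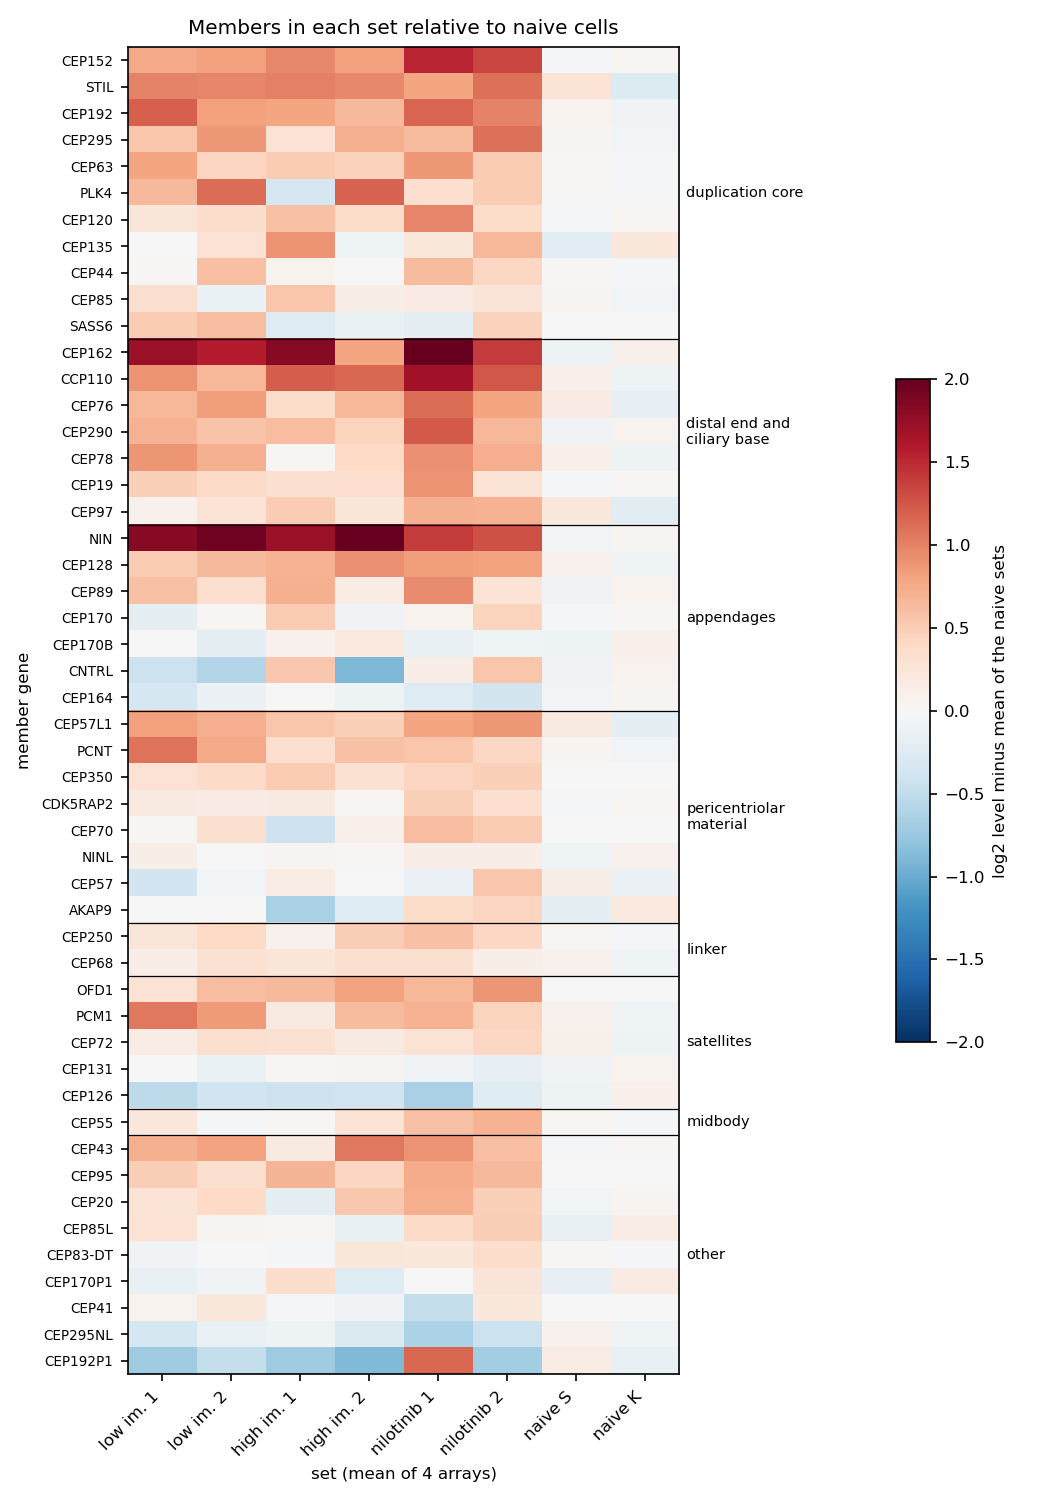
Levels of the 50 members in each set, as log2 level minus the mean of the 2 naive sets (colour scale from -2 to 2), with each column a mean of 4 arrays and rows grouped by role. NIN, CEP162, CCP110, CEP152, STIL and CEP192 are red in all 6 resistant columns, whereas PLK4, CNTRL and CEP192P1 change colour between lines of one resistance.

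A technical pattern moved with this result. The main direction of variation among arrays of the same set (the technical axis, 16.8% of the within-set variance) had mean scores of 6.09 and 5.69 in low imatinib, -2.13 and 2.73 in high imatinib, and 21.2 and 12.3 in nilotinib lines, against -20.8 and -25.1 in naive S and naive K. Members were weighted the same way: 46 of 50 (92%) had a positive weight on the axis, against 56.5% of all genes. With the axis removed from the values, the median member difference was 0.13, 27 members were positive and 1 member, NIN, passed the test. Of all genes, 0.0806% passed in that fit, against 3.72% in deposited values. NIN then differed by 1.50 ± 0.13 (adjusted p = 0.033, limma). CEP162 differed by 1.10, CCP110 and CEP152 by 0.68, STIL by 0.66 and CEP192 by 0.59 after removal, with adjusted p of 0.218, 0.153, 0.120, 0.195 and 0.173. Because the axis scores differ between groups, removing it can also remove differences between groups, and its part in each result was not tested.

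**Figure D2:**
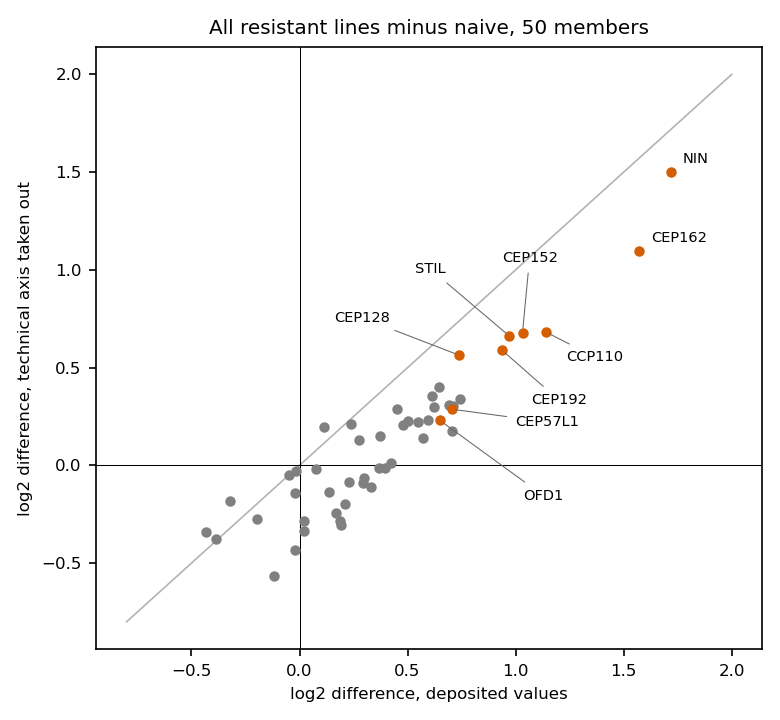
Difference of all resistant lines minus naive cells for the 50 members, in deposited values (x axis, log2) and with the technical axis taken out (y axis, log2); the grey line marks equal values and orange points are the 9 members past the threshold in deposited values. Most members lie below the line, and NIN stays highest at 1.50.

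Among the 11 members of the duplication core, 3 rose and 8 did not pass the test, with a median difference of 0.57 and all 11 differences positive. With the technical axis removed the median was 0.21 and 4 of the 11 turned negative: CEP135 (-0.11), CEP44 (-0.09), CEP85 (-0.20) and SASS6 (-0.25). CEP152, the scaffold that brings PLK4 to the centriole, was at 8.18 and 8.25 in low imatinib, 8.39 and 8.25 in high imatinib and 8.95 and 8.76 in nilotinib lines, against 7.39 and 7.47 in naive cells. Every resistant line was above both naive sets, and the nilotinib lines were the highest. The difference was 1.03 ± 0.11 (SE; 2.04-fold, adjusted p = 0.0313, limma). CEP192, which acts upstream of CEP152, was at 9.37 and 8.99 in low imatinib, 8.95 and 8.81 in high imatinib and 9.33 and 9.16 in nilotinib lines, against 8.24 and 8.09 in naive cells. No resistant line reached down to the naive range, and the difference was 0.94 ± 0.14 (1.91-fold, adjusted p = 0.0335).

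STIL, which binds and activates PLK4 at the new cartwheel, was at 9.59 and 9.58 in low imatinib, 9.60 and 9.56 in high imatinib and 9.39 and 9.70 in nilotinib lines, against 8.87 and 8.33 in naive cells. The 6 lines lay close to each other, while the naive sets were 0.54 apart. The difference was 0.97 ± 0.17 (1.96-fold, adjusted p = 0.0375). Without naive S it was larger, at 1.24, and without naive K smaller, at 0.70.

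PLK4 itself, the kinase that sets centriole number, did not pass the test (0.57 ± 0.36, 95% interval -0.29 to 1.43, adjusted p = 0.310), and differed by 0.14 with the axis removed. It was at 8.16 and 8.63 in low imatinib, 7.18 and 8.70 in high imatinib and 7.85 and 8.02 in nilotinib lines, against 7.54 and 7.49 in naive cells. Of the 6 lines, high imatinib line 1 was below both naive sets and the other 5 were above them. SASS6, which forms the hub of the cartwheel, was at 9.06 and 9.17 in low imatinib, 8.28 and 8.42 in high imatinib and 8.35 and 9.02 in nilotinib lines, against 8.54 and 8.56 in naive cells. Its low imatinib lines were above the naive sets and its high imatinib lines below them, and the difference over all lines was 0.17 ± 0.18 (adjusted p = 0.523). The remaining members of this list were CEP63, CEP295, CEP120, CEP135, CEP44 and CEP85, of which CEP63 and CEP295, like CEP120, had every resistant line above both naive sets.

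The list for the distal centriole end and the base of the cilium held 7 members: the cap proteins CCP110 and CEP97 with CEP76, and CEP162, CEP290, CEP78 and CEP19. All 7 had positive differences, with a median of 0.71 (0.34 with the technical axis removed, all 7 still positive), and 2 rose. CEP162, which promotes assembly of the transition zone at the base of the cilium, was at 8.08 and 7.92 in low imatinib, 8.17 and 7.14 in high imatinib and 8.45 and 7.74 in nilotinib lines, against 6.24 and 6.45 in naive cells. High imatinib line 2 stood lowest of the 6 lines but above both naive sets. The difference was 1.57 ± 0.30 (2.97-fold, adjusted p = 0.0441), and the range of its 8 set means, 2.21, was the widest of any member.

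CCP110, the cap protein, was at 7.49 and 7.26 in low imatinib, 7.81 and 7.74 in high imatinib and 8.27 and 7.85 in nilotinib lines, against 6.71 and 6.49 in naive cells. Every line was above both naive sets. The order of the group means from the highest was nilotinib, high imatinib, low imatinib, naive, and the steps between resistances did not pass the test. The difference over all lines was 1.14 ± 0.15 (2.20-fold, adjusted p = 0.0313). Its partner in the cap, CEP97, was at 7.29 and 7.47 in low imatinib, 7.71 and 7.44 in high imatinib and 7.91 and 7.90 in nilotinib lines, against 7.42 and 6.98 in naive cells. The low imatinib and naive values of CEP97 overlapped, and it did not pass the test. CEP76, which restrains centriole reduplication, differed by 0.74 ± 0.15 and fell just outside the threshold (adjusted p = 0.0513), with every line above both naive sets.

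**Figure D3:**
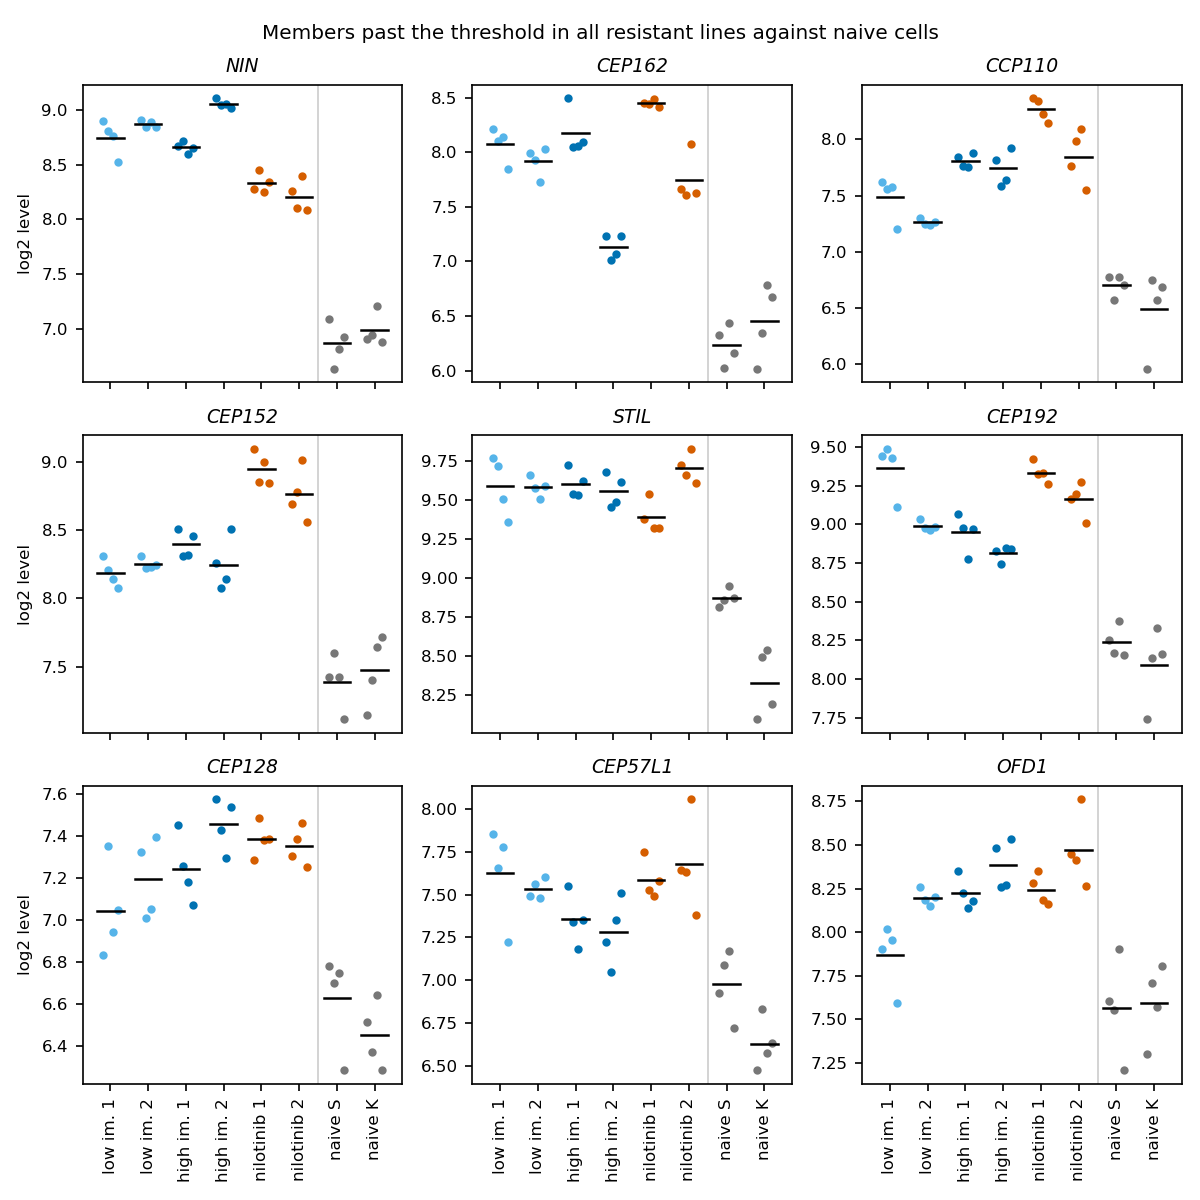
Log2 levels of the 9 members past the threshold on each of the 32 arrays (points) with the mean of each set (bars), for low imatinib (light blue), high imatinib (dark blue), nilotinib (orange) and naive (grey) sets. In all 9 panels every resistant set mean lies above both naive means. For NIN the lines lie between 8.21 and 9.06, against 6.87 and 6.99 in naive cells.

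Appendage proteins were split. Of 7 members, 2 rose, and the median difference of the list was 0.13 (-0.14 with the technical axis removed). NIN (ninein, which anchors microtubules at the subdistal appendages) was at 8.75 and 8.87 in low imatinib, 8.66 and 9.06 in high imatinib and 8.33 and 8.21 in nilotinib lines, against 6.87 and 6.99 in naive cells. The difference of 1.72 ± 0.13 (3.29-fold, adjusted p = 0.0170) was the largest of the 50 members, and NIN ranked 2 of 14884 genes by p. CEP128, another subdistal appendage protein, was at 7.04 and 7.20 in low imatinib, 7.24 and 7.46 in high imatinib and 7.39 and 7.35 in nilotinib lines, against 6.63 and 6.46 in naive cells. No line overlapped with the naive sets (0.74 ± 0.12, 1.67-fold, adjusted p = 0.0352).

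Other appendage members did not pass. CNTRL (centriolin, a mother centriole protein also needed for the end of cell division) was at 7.36 and 7.21 in low imatinib, 8.33 and 6.90 in high imatinib and 7.93 and 8.35 in nilotinib lines, against 7.73 and 7.86 in naive cells. Its low imatinib lines were below the naive sets and its nilotinib lines above, while the high imatinib lines fell on both sides. With the technical axis removed, CNTRL differed by -0.94 in low imatinib, -0.53 in high imatinib and -0.24 in nilotinib. CEP164, a distal appendage protein needed for docking at the membrane, was at 6.78 and 7.02 in low imatinib, 7.12 and 7.03 in high imatinib and 6.87 and 6.77 in nilotinib lines, against 7.07 and 7.19 in naive cells. CEP170 cannot be told apart with certainty from its transcribed pseudogene CEP170P1, whose sequence is similar: the set means of both moved together (r = 0.890 over the 8 sets).

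Of 8 members in the pericentriolar material, 1 rose and the median difference was 0.21 (-0.05 with the technical axis removed, with 6 of 8 negative). CEP57L1, a relative of CEP57 that helps keep centriole pairs engaged, was at 7.63 and 7.53 in low imatinib, 7.36 and 7.28 in high imatinib and 7.59 and 7.68 in nilotinib lines, against 6.98 and 6.63 in naive cells. All lines lay above both naive sets (0.71 ± 0.12, 1.63-fold, adjusted p = 0.0391), and the difference was 0.29 with the technical axis removed. PCNT (pericentrin, the main scaffold of the material) was at 8.56 and 8.23 in low imatinib, 7.80 and 8.05 in high imatinib and 8.02 and 7.88 in nilotinib lines, against 7.53 and 7.41 in naive cells. Every line was higher than both naive sets, with the low imatinib lines on top, but the difference stayed outside the threshold (0.62 ± 0.14, adjusted p = 0.0531).

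CDK5RAP2, which activates microtubule nucleation, was at 8.05 and 8.03 in low imatinib, 8.06 and 7.91 in high imatinib and 8.35 and 8.22 in nilotinib lines, against 7.83 and 7.91 in naive cells. Its differences were small beside those of CEP152 or NIN (0.23 ± 0.10, adjusted p = 0.187), and the value was -0.08 with the technical axis removed. AKAP9, a scaffold shared by the centrosome and the Golgi, was at 8.20 and 8.18 in low imatinib, 7.54 and 7.93 in high imatinib and 8.55 and 8.62 in nilotinib lines, against 7.99 and 8.39 in naive cells. Both high imatinib lines were below the naive sets and both nilotinib lines above them, which left a difference of -0.02 over all lines. With the technical axis removed, AKAP9 differed by -0.43 over all lines, -0.77 in high imatinib and -0.14 in nilotinib.

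Both linker members, CEP250 and CEP68, had all 6 lines above the naive sets without passing the test. CEP250, which ties the parent centrioles together, differed by 0.37. Among the 5 satellite members 1 rose: OFD1, which limits centriole length, was at 7.87 and 8.20 in low imatinib, 8.22 and 8.39 in high imatinib and 8.24 and 8.47 in nilotinib lines, against 7.57 and 7.60 in naive cells. Low imatinib line 1 was the nearest to the naive sets, and the difference was 0.65 ± 0.13 (1.57-fold, adjusted p = 0.0484). OFD1 differed by 0.23 with the technical axis removed.

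PCM1, the scaffold of the centriolar satellites, was at 10.27 and 10.06 in low imatinib, 9.38 and 9.85 in high imatinib and 9.90 and 9.65 in nilotinib lines, against 9.30 and 9.12 in naive cells. It did not pass the test (0.64 ± 0.16, adjusted p = 0.0662), although no line overlapped with the naive sets. CEP126, another satellite protein, had the most negative difference of the 50 members, -0.43 ± 0.14 (adjusted p = 0.105), with levels of 4.45 and 4.58 in low imatinib, 4.56 and 4.57 in high imatinib and 4.31 and 4.73 in nilotinib lines, against 4.87 and 5.06 in naive cells. These are low levels, and no detection calls were used. CEP55, which acts at the midbody in the last step of division, was at 7.15 and 6.91 in low imatinib, 6.95 and 7.20 in high imatinib and 7.50 and 7.62 in nilotinib lines, against 6.96 and 6.88 in naive cells. Only the nilotinib lines both lay above the naive sets, and the difference over all lines was 0.30 ± 0.12 (adjusted p = 0.163) and -0.06 with the technical axis removed.

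Of the 9 members outside these roles, 0 passed the test. CEP43, a distal centriole protein, differed most (0.71), and CEP295NL had a difference of -0.32 with every line below both naive sets.

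**Figure D4:**
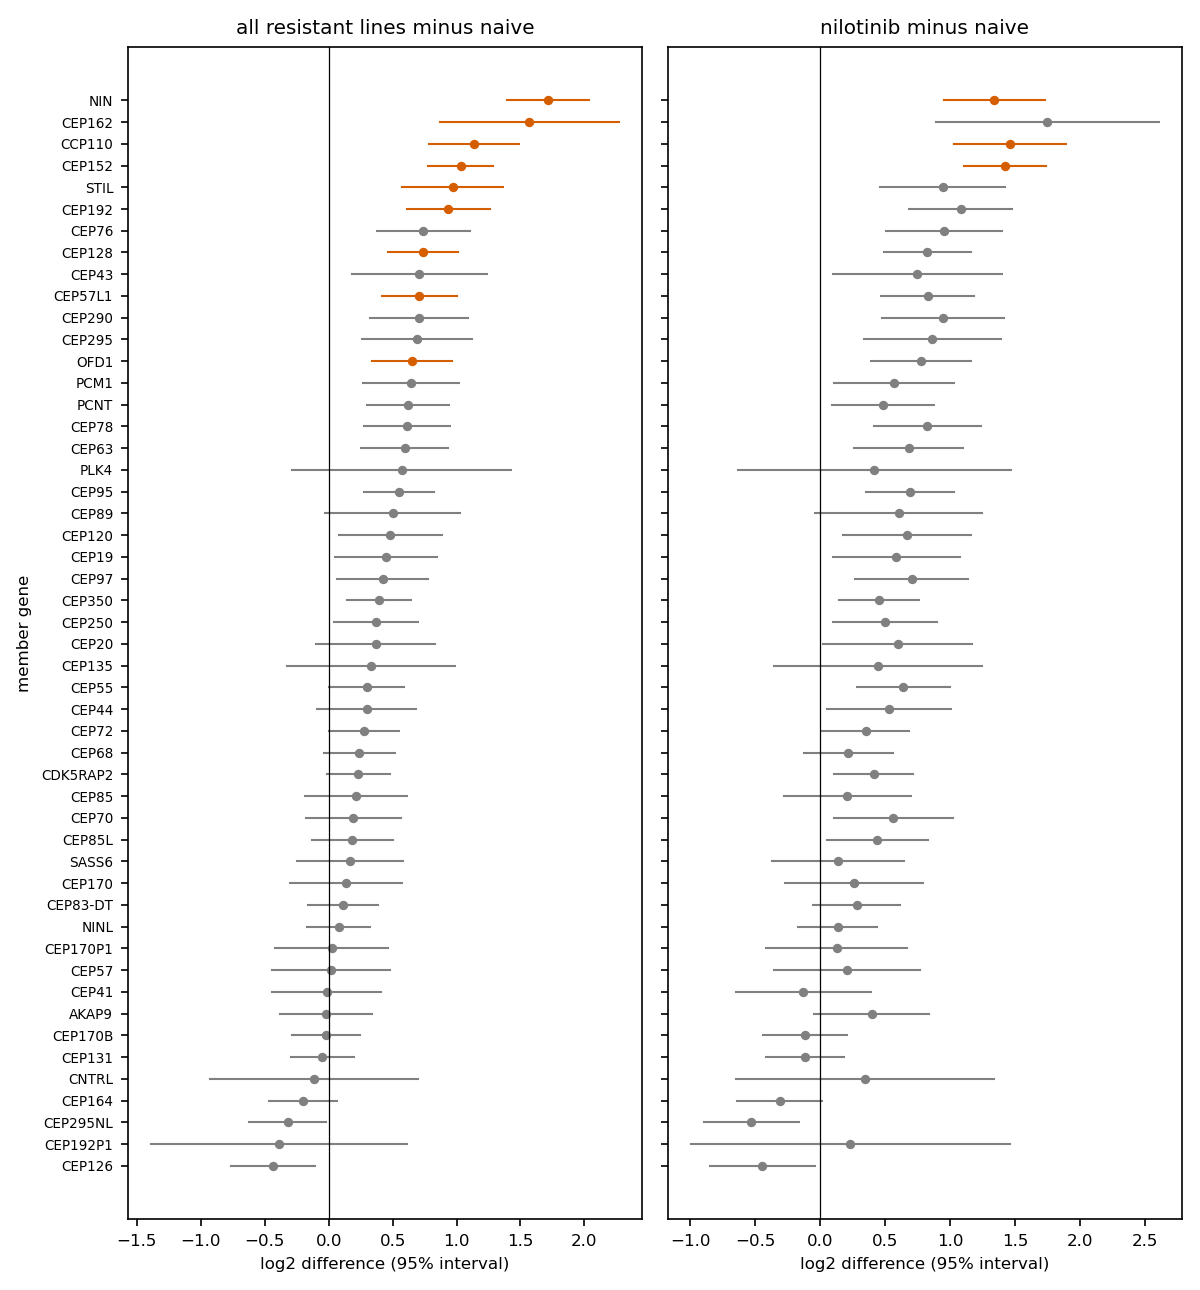
Log2 difference with its 95% interval for each of the 50 members, in all resistant lines minus naive cells (left) and nilotinib minus naive cells (right); orange marks members past the threshold, 9 on the left and 3 on the right. The intervals of PLK4, CNTRL and CEP192P1 are wide, and their lines differed within a resistance.

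In low imatinib lines alone 0 members passed the test, and limma called 0% of all genes. At an unadjusted p under 0.05, 20 members were higher and 1 was lower, against 14.8% and 6.82% of all genes. The largest differences were those of NIN (1.88 ± 0.17, adjusted p = 0.0574), CEP162 (1.65), CEP192 (1.01) and STIL (0.98). The smallest were those of CEP192P1 (-0.60), CNTRL (-0.51) and CEP126 (-0.45). Both lines lay above both naive sets for 32 members, against 31% of all genes, and below for 5, against 31%. The median member difference was 0.32, and 0.07 with the technical axis removed. Fitted on low imatinib and naive sets alone, 18 members passed, where 13.4% of all genes did, and without either high imatinib line 9 members passed, where 4.74% of all genes did.

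High imatinib lines also gave 0 members past the threshold and 0% of all genes. At an unadjusted p under 0.05, 15 members were higher and 1 was lower, against 11.1% and 4.12% of all genes. NIN (1.93 ± 0.17, adjusted p = 0.0718), CEP162 (1.31), CCP110 (1.18) and STIL (0.98) had the largest differences. CEP192P1 (-0.80), AKAP9 (-0.46) and CEP126 (-0.40) had the smallest. Both lines lay above both naive sets for 26 members, against 24.3% of all genes, and below for 6, against 25.9%. Here the median member difference was 0.31, and 0.09 with the technical axis removed. With high imatinib line 1, high imatinib line 2, nilotinib line 1 or nilotinib line 2 left out, 1 member passed, where 0.759%, 0.84%, 0.0537% and 0.0537% of all genes did.

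Nilotinib lines had 3 members past the threshold, all higher, where 0.443% of all genes were called and 0.39% were higher. These were CEP152 (1.42 ± 0.13, 2.68-fold), NIN (1.34 ± 0.17, 2.53-fold) and CCP110 (1.46 ± 0.18, 2.75-fold), each with adjusted p = 0.0460 in limma. CEP162 had a larger difference, 1.75 ± 0.36, and did not pass (adjusted p = 0.0575). The smallest differences were those of CEP295NL (-0.53), CEP126 (-0.45) and CEP164 (-0.31). Both nilotinib lines lay above both naive sets for 40 members (80%), against 32.7% of all genes, and below both for 4, against 34.7%. The median member difference was 0.51. The nilotinib lines also had the highest scores on the technical axis. With the axis removed 0 members and 0% of all genes passed, and the median member difference was 0.17. The count and the share of all genes called changed when single sets were left out, which leaves a group with a single set. With each set left out in turn, the difference ran from 1.33 to 1.52 for CEP152. It ran from 1.28 to 1.40 for NIN and from 1.25 to 1.67 for CCP110. The count was 0 without naive K array 1 and low imatinib line 1 array 4, where 0% of all genes were called. The 4 comparisons with naive cells share the 2 naive sets.

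Between resistances, 0 members passed in any of the 3 comparisons, and limma called 0% of all genes in each. High against low imatinib gave 0 members higher and 5 lower at an unadjusted p under 0.05, against 1.71% and 3.14% of all genes. SASS6 had the smallest p there, with a difference of -0.76 (95% interval -1.27 to -0.25, adjusted p = 0.934). Nilotinib against low imatinib gave 4 higher and 2 lower, against 4.25% and 2.65% of all genes, led by CEP152 with 0.64 (0.32 to 0.95, adjusted p = 0.608). Nilotinib against high imatinib gave 7 higher and 1 lower, against 3.79% and 2.55% of all genes. AKAP9 led there with 0.85 (0.41 to 1.30, adjusted p = 0.744, limma). Without nilotinib line 2 the count past the adjusted threshold changed. The intervals leave room for sizeable differences, so these results do not show that the resistances are alike.

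Lines of one resistance differed in more members than the resistances did, but those tests compare a set with another against the spread of technical arrays only. In high imatinib, 10 members were higher and 8 lower in line 2 than in line 1 (36% of members, where 33% of all genes were called). PLK4 was at 8.70 in line 2 and 7.18 in line 1 (1.52 ± 0.14), with no overlap of arrays. CNTRL was at 6.90 in line 2 and 8.33 in line 1 (-1.44 ± 0.12), and CEP162 at 7.14 in line 2 and 8.17 in line 1 (-1.04 ± 0.13). CEP135, which joins the cartwheel to the centriole wall, was at 7.04 in line 2 and 8.03 in line 1 (-0.99 ± 0.13). Each of these 4 members thus had a gap of about 1 or more between lines selected at the same dose. CEP170P1 (-0.61) was also lower in line 2, and CEP43 (0.88), CEP20 (0.74) and CEP70 (0.50) were higher.

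In nilotinib, 9 members were higher and 9 lower in line 2 than in line 1 (27.6% of all genes were called). The widest gap was that of the pseudogene CEP192P1, at 6.03 in line 2 and 7.88 in line 1 (-1.84 ± 0.10). Its other sets lay between 5.84 and 6.86, so nilotinib line 1 stood alone. A second feature of CEP192P1 was at 8.71 in nilotinib line 1 and at 5.01 to 6.88 in the other 7 sets, whereas another feature lay between 5.28 and 5.81 in all sets. The parent gene CEP192 was at 9.16 in line 2 and 9.33 in line 1, and the set means of parent and pseudogene had r = -0.03 over the 8 sets. CEP162 (-0.71), CEP89 (-0.67) and CEP19 (-0.64) were lower in line 2. CEP41 (0.69), SASS6 (0.66), CEP57 (0.65) and CEP295 (0.48) were higher.

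The low imatinib lines differed in 6 members (18.7% of all genes were called): PLK4 (0.47) and CEP44 (0.58) were higher in line 2 than in line 1, and CEP85 (-0.44), CEP192 (-0.38), CEP63 (-0.35) and PCNT (-0.33) were lower. The count was lower without array 2 or array 3 of each set. The share of all genes called in those fits is not given here, so this cannot be read as a trait of the members. Naive K and naive S differed in 4 members (12.4% of all genes were called). STIL was at 8.33 in naive K and 8.87 in naive S (-0.54 ± 0.10), CEP97 was lower in naive K (-0.43), and AKAP9 (0.39) and CEP135 (0.42) were higher. This count was lower without array 1 or array 2 of each set, again with no share of all genes beside it.

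**Figure D5:**
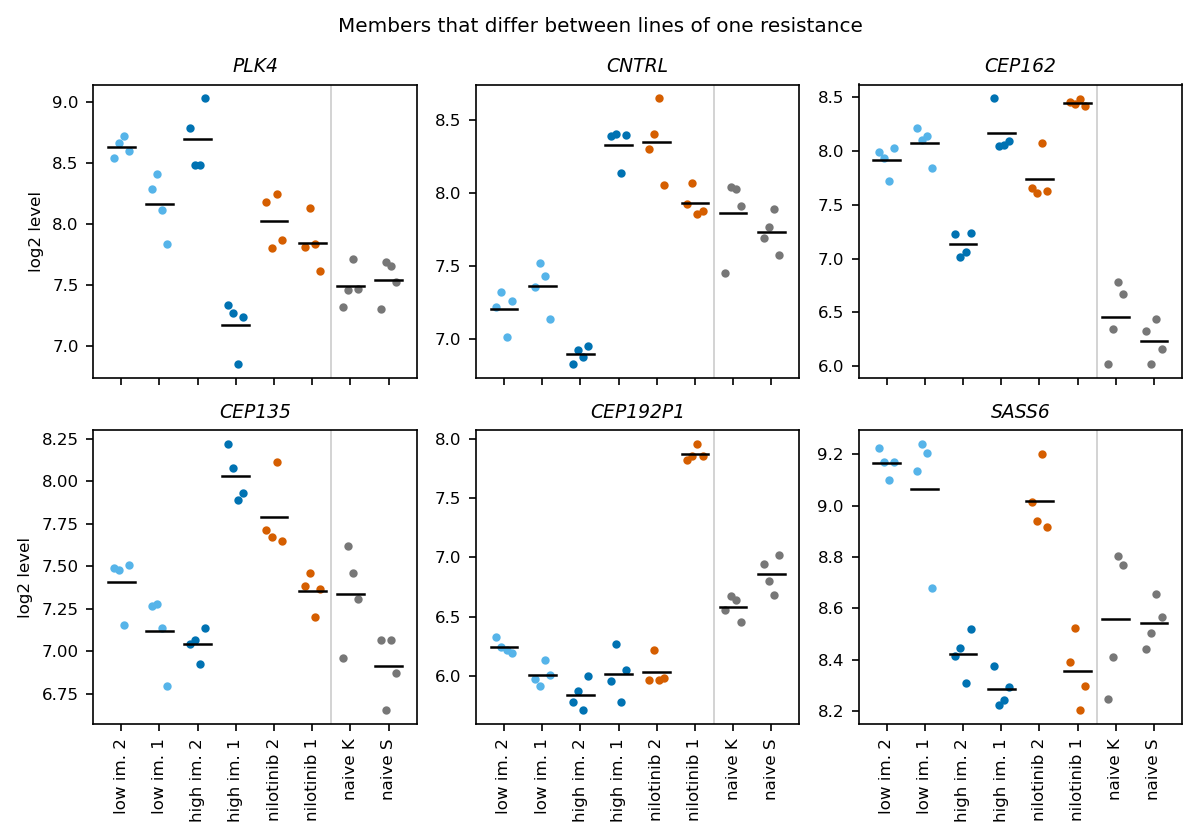
Log2 levels of PLK4, CNTRL, CEP162, CEP135, CEP192P1 and SASS6 on each array (points) with set means (bars), with line 2 left of line 1 in each resistance and naive K left of naive S. PLK4 and CNTRL run in opposite directions between the high imatinib lines, and CEP192P1 is high in nilotinib line 1 alone, at 7.88.

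Across the 50 members, the closest pair of sets was naive S and naive K, with a root mean square distance of 0.200. The low imatinib lines came next, 0.228 apart. High imatinib line 1 was nearest to nilotinib line 2 (0.404), and high imatinib line 2 to low imatinib line 2 (0.265). Nilotinib line 1 lay farthest from naive cells, at 0.775 from naive S and 0.811 from naive K. Much of this pattern was not particular to the members. Over all genes, naive S and naive K were also the closest pair (0.257). The low imatinib lines, 0.312 apart, did not come next there, as low imatinib line 2 was closer to high imatinib line 2. High imatinib line 1 was again nearest to nilotinib line 2 (0.403), and high imatinib line 2 to low imatinib line 2 (0.288). Nilotinib line 1 was again farthest from naive S (0.576) and naive K (0.607).

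Lists of related genes were set beside the members. Of 34 other centriole, appendage and satellite genes measured (of 47 listed), 3 rose in all resistant lines against naive cells and 0 fell. Their median difference was 0.50 and 30 were positive. Over all genes 3.21% were called higher in this comparison, the median was -0.03 and 47.6% were positive. The 3 were RTTN (0.75), which builds full-length centrioles, POC5 (0.66), a protein of the distal centriole, and USP33 (0.61), which stabilises CCP110. Among 27 proliferation genes, 6 rose and 0 fell, with a median of 0.73. The values of both lists are deposited ones and are not given here with the technical axis removed. MKI67 was at 9.83 and 10.15 in low imatinib, 9.35 and 9.49 in high imatinib and 9.43 and 9.89 in nilotinib lines, against 8.77 and 8.51 in naive cells (1.05 ± 0.17, adjusted p = 0.0347). AURKA, a mitotic kinase of the centrosome, differed by 0.81 ± 0.12 (adjusted p = 0.0331). The median of the proliferation genes was lowest in high imatinib line 1 (0.28 above the naive mean) and between 0.64 and 0.87 in the other 5 lines. The median over the 50 members was 0.30 in that line, against 0.29 in high imatinib line 2. Low imatinib lines 1 and 2 had 0.28 and 0.34, and nilotinib lines 1 and 2 had 0.61 and 0.47. The part of proliferation in the members' differences was not tested. Of 19 genes of the gamma-tubulin ring and augmin, 1 was measured, MZT1 (0.29), which did not pass the test.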

How the data were processed

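Expression of K-562 sets was measured on 32 arrays. The deposited values are summarised per feature on a log2 scale (1.24 to 14.2; base inferred from this range), made with Transcriptome Analysis Console 4.0 per the submitters' processing notes; the normalization and genome build are not given in the sources used here. Medians ranged from 5.85 to 6.11 over arrays. Of 53617 features, 16098 carried 1 symbol in the platform annotation, 37519 carried none here, and 779 genes had more than 1 feature. The 2 sets per group limit the precision of comparisons between groups.

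The 4 arrays of a set were averaged, and limma 3.58.1 (R 4.3.3) modelled the 8 set means by group, leaving 4 residual degrees of freedom, so the spread is pooled over all 4 groups. Comparisons of sets within a group used the 32 arrays with 24 residual degrees of freedom. P-values were two-sided and adjusted by Benjamini-Hochberg over 14884 genes, with a threshold of 0.05. The ± values are standard errors from limma. The technical axis is the first principal component of deviations from set means. Named were members past the threshold, the 4 largest and 3 smallest differences in each comparison with naive cells, the leading member of each role, the 5 with the widest range of set means, and fixed examples; CEP97, CEP76 and CEP120 with the other duplication core genes, CEP170, CEP68, and the secondary members in the closing text were added after their values were seen. Alternatives changed the filter, scaling, features, block, samples and axis. The script was tested on simulated data. The members and lists were chosen with earlier results of these data known. Promoters come from RefSeq.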

Additional observations from a re-analysis of the deposited data

Results flagged for a closer look

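Of 250 tests for a value far from the rest of its group, 21 found one. Dixon's test was run over the 8 arrays of a group, or over the 6 resistant line means. Its nominal rate of about 1 in 20 assumes independent values, but a group holds 4 technical arrays from each of 2 sets. The flagged values were therefore not compared with that rate. Each value is given against the range of the others. Naive K array 1, which had the lowest score on the technical axis (-47.1), stood apart in CCP110 (5.96 against 6.57 to 6.78), CEP192 (7.74 against 8.14 to 8.37), CEP63 (6.38 against 6.64 to 6.85), PCM1 (8.91 against 9.18 to 9.37) and CEP131 (7.73 against 7.20 to 7.45). Low imatinib line 1 array 4, at -15.2 on the axis where the other 3 arrays of its set were above 0, stood apart in AKAP9 (7.76 against 8.11 to 8.40), CEP250 (6.28 against 6.63 to 6.78), CEP43 (7.39 against 7.64 to 7.77), NIN (8.52 against 8.76 to 8.91) and SASS6 (8.68 against 9.10 to 9.24). Without both arrays, 7 of the 9 members remained past the threshold in all resistant lines against naive cells (2.39% of all genes passed). In nilotinib against naive cells 0 of the 3 remained (0% of all genes passed).

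Other single arrays that stood apart were naive S array 2 in CEP170P1 (6.19 against 6.81 to 7.23), naive K array 4 in CEP68 (6.89 against 7.13 to 7.32), low imatinib line 2 array 3 in CEP78 (7.57 against 7.85 to 8.02) and low imatinib line 1 array 3 in CEP83-DT (6.09 against 6.44 to 6.72) and CEP85L (6.10 against 5.18 to 5.55). In the nilotinib group they were line 2 array 4 in CEP250 (6.44 against 6.73 to 6.98) and PCNT (7.55 against 7.92 to 8.14), and line 2 array 3 in OFD1 (8.76 against 8.16 to 8.45). Among the 6 resistant line means, nilotinib line 1 was far from the others in CEP19 (5.58 against 4.95 to 5.15), CEP192P1 (7.88 against 5.84 to 6.24) and CEP290 (8.11 against 7.33 to 7.59). CEP290 encodes a transition zone protein and CEP19 a protein of the mother centriole.

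For 4 members, both lines of one resistance lay above the naive sets and both lines of another below them. The same rule was not counted over all genes, so these 4 cannot be read as a trait of the members. Of all genes, 31% lay above and 31% below both naive sets in low imatinib. These shares were 24.3% and 25.9% in high imatinib, and 32.7% and 34.7% in nilotinib. Relative to low imatinib, SASS6 differed by -0.76 in high imatinib (adjusted p = 0.934, limma), CEP41, a protein linked to tubulin glutamylation in cilia, by -0.20 in high imatinib (adjusted p = 0.946), and CNTRL by 0.86 in nilotinib (adjusted p = 0.774). AKAP9 differed by 0.85 in nilotinib relative to high imatinib (adjusted p = 0.744). The difference between the resistances did not pass the test for any of the 4. All these positions are in deposited values. With the technical axis removed, AKAP9 and CNTRL differed from naive cells by -0.14 and -0.24 in nilotinib, below rather than above. SASS6 and CEP41 kept the signs of their group differences.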

How the results depend on the processing

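The 9 members past the threshold in all resistant lines against naive cells, and the 3 in nilotinib against naive cells, stayed higher in all 17 alternatives; over all lines NIN passed in 13 of the 17, CCP110 and CEP152 in 11, CEP128 in 10, CEP162, CEP192 and STIL in 9, CEP57L1 in 8 and OFD1 in 6, and in nilotinib CCP110 and CEP152 passed in 7 and NIN in 6. The median member difference ran from 0.13 to 0.49 over all lines, 0.07 to 0.43 in low imatinib, 0.09 to 0.40 in high imatinib and 0.17 to 0.68 in nilotinib, lowest with the axis removed. Counts of members moved with the share of all genes called, given in brackets beside most counts (3.72% for all lines as reported). In all resistant lines against naive cells, the 9 members past the threshold became 5 with quantile normalization (2.17%). Arrays shifted to one median gave 18 (11.3%). Every array feature tested gave 1 (0.0298%), and the technical axis removed gave 1 (0.0806%). A random block for the set over 32 arrays gave 24, of which 1 was lower (24.6%). The count also changed when single sets were left out. The dimmest 40% of genes left out gave 13, including those 9 (8.7%). For low imatinib the 0 members became 1 without the dimmest genes (0.0448%), 4 with one median (1.16%) and 19 with the random block (18%). With only the groups compared they became 18 (13.4%), and the count also changed when single sets were left out. For high imatinib the 0 became 12 with the random block (11.3%), and the count also changed when single sets were left out. For nilotinib the 3 became 0 with quantile normalization, every feature, only the groups compared, the axis removed, or without naive K array 1 and low imatinib line 1 array 4 (chosen after seeing the data), 19 with one median and 30 with the random block, with 0 to 15 when each set was left out. The random block gave 3 members for high against low imatinib (2.77%). It gave 4 for nilotinib against low imatinib (3.7%) and 4 for nilotinib against high imatinib (1.35%). The block treats technical arrays as partly separate evidence (correlation 0.435). With the line number as a replicate block over the 6 resistant lines, 0 members passed between resistances, as without it; line 2 minus line 1 correlated at 0.14, 0.19 and -0.20 between resistances, and the labels do not pair the lines. Between the low imatinib lines, the count was lower with each array left out in turn. Between naive K and naive S the count was lower in those fits too, and higher with quantile normalization. The shares of all genes called there are not given here. The cause of these changes was not tested.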

Other observations

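CEP192P1 was 1.84 higher in nilotinib line 1 than in nilotinib line 2. For the 10 measured genes nearest to it on chromosome 5, in the order of the RefSeq annotation, the same difference had a median of 0.07 and ran from -0.34 (SFXN1) to 0.85 (SIMC1, the next measured gene on one side), with NOP16 at 0.67.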
